A study of Mus musculus with 9 samples.

Results

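The genes Tgm1, Tgm2, Tgm3 and Tgm5, which encode the transglutaminases of the skin, were followed in keratinocytes of newborn mice. They were chosen by name, and all 4 were found among the 24532 genes of the deposited table and passed the filter on low counts, which left 14507 genes for testing. The cells came from C57BL/6 skin, and the groups were postnatal day 1, postnatal day 7 and postnatal day 14. Each group had 3 RNA libraries, and none carried a treatment or an altered allele. Cells were sorted from fresh skin as live and negative for CD45.2, a leukocyte surface protein. No keratinocyte protein was part of that gate, so skin cells of other kinds could be included. Nothing in the labels ties a library to its own animal, culture or pool, so p-values measure only the spread between libraries, which may be technical.

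Transglutaminases are calcium-dependent enzymes that join glutamine and lysine side chains of proteins. In the uppermost living layers of the epidermis they weld structural proteins into the cornified envelope, the insoluble shell that replaces the plasma membrane of a dying keratinocyte. Tgm1 is anchored in the membrane, starts the scaffold and attaches ceramides to it, and loss of the human gene causes lamellar ichthyosis. Tgm3 is a soluble proenzyme activated by proteolytic cleavage, acts late on loricrin and small proline-rich proteins, and hardens hair through trichohyalin. Tgm5 acts in the upper epidermis, and loss of the human gene causes acral peeling skin syndrome. Tgm2 is the widespread tissue transglutaminase, which also binds GTP, fibronectin and integrins.

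In the RefSeq annotation of GRCm38.p6 (mm10), 3 of the 4 genes lie on chromosome 2 and Tgm1 lies apart, on the minus strand of chromosome 14 from 55700009 to 55713921. Tgm3 spans chromosome 2 from 129987794 to 130050399 on the plus strand, Tgm5 from 121046111 to 121085841 on the minus strand, and Tgm2 from 158116405 to 158146392 on the minus strand. Tgm5 has family neighbours on either side. The gap to Epb42, an erythrocyte protein of the family that has lost the enzyme activity, is 9233 bp, and the gap to Tgm7 is 7656 bp. Tgm6 lies 62016 bp beyond Tgm3. In GENCODE M21, exons of Tgm1 overlap the antisense transcript Gm49067, and exons of Tgm2 overlap Rprd1b on the opposite strand. The strand setting of the counting is not given in the sources used here, so reads of such partners cannot be told apart.

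The start regions of Tgm3, Tgm5 and Tgm1 are shown because these members took 3 different courses over the days. Each sequence runs from 150 bases before an annotated RefSeq start and has the start as its base 151, with 175 bases in all, 5′ to 3′ on the strand of the gene, and capitals mark the motifs found. The stretches lie at chr2:130012190-130012364 (plus strand), chr2:121085817-121085991 (minus strand) and chr14:55713468-55713642 (minus strand) of GRCm38.p6. Those of Tgm3 and Tgm1 lie wholly inside the RefSeq gene spans given above, so these starts are not the outer 5′ ends of the spans.
Tgm3: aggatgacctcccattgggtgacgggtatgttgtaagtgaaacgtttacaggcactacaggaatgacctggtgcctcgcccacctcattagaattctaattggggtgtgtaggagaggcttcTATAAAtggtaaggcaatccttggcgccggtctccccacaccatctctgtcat
Tgm5: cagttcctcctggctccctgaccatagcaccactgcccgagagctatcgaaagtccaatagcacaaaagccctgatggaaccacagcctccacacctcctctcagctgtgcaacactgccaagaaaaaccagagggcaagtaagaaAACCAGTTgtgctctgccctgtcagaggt
Tgm1: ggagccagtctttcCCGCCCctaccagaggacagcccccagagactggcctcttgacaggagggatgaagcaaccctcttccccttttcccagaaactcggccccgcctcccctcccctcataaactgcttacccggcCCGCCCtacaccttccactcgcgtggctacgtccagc

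5 motifs were searched on both strands of the 300 bases from 250 before the start. They were the TATA box as TATAAA, the Grainyhead motif as AACCNGTT, the AP-1 motif as TGANTCA, the AP-2 motif as GCCNNNGGC and the Sp1 motif as GGGCGG. The Tgm3 window held TATAAA, beginning 28 bases before the start, as did 13.6% of the 32851 mouse promoters in the RefSeq table. The Tgm5 window held a Grainyhead match across the start, a motif present in 2.09% of promoters. The Tgm1 window held the Sp1 motif on the reverse strand at 2 places, 136 and 12 bases before the start, and 35.7% of promoters held it. A further annotated Tgm1 start and the Tgm7 start held none of the 5 motifs, AP-1 (7.81% of promoters) and AP-2 (16.6%) matched in none of these windows, and Tgm2 has no entry in that table. A match is a run of letters and not a measured binding site.

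Library totals lay between 50670191 and 62970768 counts, and log CPM across genes, which are not independent replicates, gave a Pearson's r of 0.986 to 0.991 within a day. CPM are counts scaled to a common library size with TMM factors. The keratinocyte keratin Krt14 was at 12764 ± 318 CPM at day 1 (SD, n = 3). Summed levels of marker lists were at most 18.0 CPM for leukocytes, 2.45 CPM for endothelium and 4.30 CPM for smooth muscle in any library. Leukocyte markers summed to 5.87 to 7.29 CPM at day 1 and 17.6 to 18.0 CPM at day 14. Of 8 tested, 6 passed as higher between these days and 0 as lower, against 35.5% higher over all genes tested. Melanocyte markers fell from a sum of 374 to 401 CPM at day 1 to 15.0 to 19.1 CPM at day 14 (7 of 7 passed the test as lower). Fibroblast markers summed to 122 to 225 CPM at day 1 and 16.8 to 37.2 CPM at day 14 (2 of 6 passed as lower). Over all genes tested, 38.4% passed as lower between these days, and the count for fibroblast markers was near that share. Xist, the RNA of the inactive X chromosome, had 0 counts in all day 7 libraries, where the Y-linked Ddx3y had at least 5223. Ddx3y had 0 counts in all day 14 libraries, where Xist had at least 116572. Each day 1 library held both, with 53509 to 104994 counts of Xist and 1781 to 3456 of Ddx3y. A day 1 library thus held RNA of both sexes and was not of a single animal. Each comparison of day 14 with day 7 is also one of female with male RNA, so day and sex cannot be told apart. Day 1 library 4 had the lowest summed level of suprabasal markers, 10259 CPM against 14927 and 15177 CPM in the other day 1 libraries, and the highest fibroblast sum, 225 CPM. In bulk RNA, fewer cells of a type and less RNA per cell cannot be told apart. Libraries carry the numbers of the file headers, which run from 4 to 6 for the first and last age and from 1 to 3 for day 7. The headers of day 7 are also written in another style than those of the other days. What that style stands for is not given, and any difference tied to it cannot be told apart from day.

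The 4 transglutaminases did not move together. Tgm3 rose 5.10-fold to day 7 and fell back by day 14, Tgm5 fell in both steps, Tgm1 was highest at day 14, and Tgm2 stayed under 1.1 CPM in each library. The call for each step was an adjusted p under 0.05 in edgeR's quasi-likelihood test, with Benjamini-Hochberg adjustment over all 14507 genes. Between days 1 and 7, 1 member rose and 1 fell, where 49.4% of all genes tested were called (25.5% higher and 24.0% lower). Between days 7 and 14, 1 rose and 2 fell, against 67.6% of all genes (32.5% higher and 35.1% lower). Between days 1 and 14, 1 rose and 1 fell, against 73.9% (35.5% higher and 38.4% lower). With calls this common, a call alone did not set a member apart from other genes, and the sizes and courses below carry the description. Asked as any difference over the 3 days, Tgm1, Tgm3 and Tgm5 passed and Tgm2 did not (adjusted p = 0.883), where 82.1% of all genes passed.

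**Figure D1:**
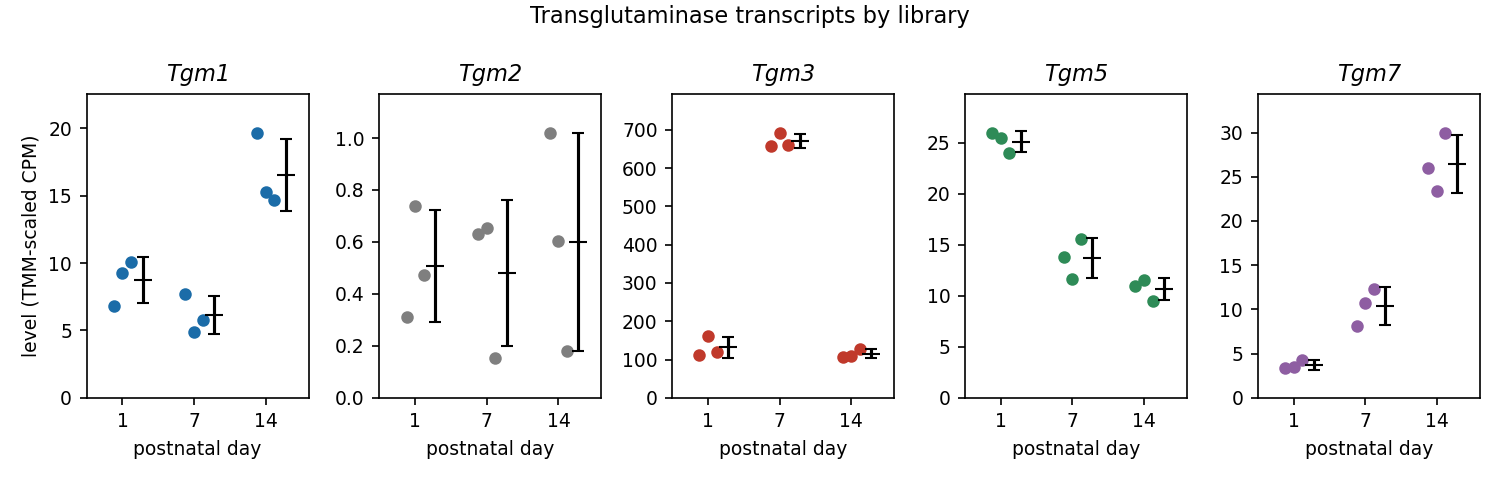
Level of each transglutaminase (y axis, TMM-scaled CPM, from 0, own scale per panel) at postnatal days 1, 7 and 14 (x axis), with a point per library and the mean with SD (n = 3) beside it. Tgm3 peaked at day 7 between 658 and 691 CPM, Tgm5 was highest at day 1, Tgm1 and Tgm7 were highest at day 14, and the Tgm2 points of all days overlap.

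Tgm3, the soluble proenzyme of late envelope assembly, had 112, 161 and 121 CPM in day 1 libraries 4, 5 and 6. At day 7 it had 658, 691 and 661 CPM in libraries 1, 2 and 3, and at day 14 it had 107, 111 and 128 CPM in libraries 4, 5 and 6. All day 7 libraries stood above all others, and the libraries of days 1 and 14 overlapped. The means were 131 ± 26.3, 670.1 ± 18.3 and 115 ± 11.3 CPM (SD, n = 3). The rise to day 7 was 5.10-fold (log2 change 2.35 ± 0.14 SE, edgeR adjusted p = 2.78e-06), and the fall to day 14 was 5.81-fold (log2 change -2.54 ± 0.14 SE, adjusted p = 8.31e-07). Day 14 and day 1 were not told apart (log2 change -0.19, 95% confidence interval -0.49 to 0.12, adjusted p = 0.227). On library totals without TMM factors this difference passed (log2 change -0.46, adjusted p = 0.0131), a scaling that moves the median of all genes to -0.32.

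A rise to day 7 followed by a fall to day 14, with both steps past the threshold, was found in 1050 of the 14507 genes (7.24%). Ordered by the smaller of their 2 steps, Tgm3 had rank 11 among these, and rank 3 among the 892 with a mean of at least 10 CPM. The genes whose profile over the 9 libraries lay closest to that of Tgm3, among 9116 genes with a mean of at least 10 CPM, were Serpina3b, Pdzrn4 and Lgals9. Likeness was the root mean square difference of centred log2 CPM, which was 0.35 for Serpina3b, 0.45 for Pdzrn4 and 0.51 for Lgals9. Serpina3b, a serine protease inhibitor gene, had 18.0 ± 1.76, 54.9 ± 5.02 and 11.5 ± 2.64 CPM at days 1, 7 and 14. Lgals9, which encodes the galactose-binding lectin galectin-9, ran from 57.8 to 66.6 CPM at day 1, from 143 to 168 CPM at day 7 and from 50.2 to 57.7 CPM at day 14. Both peaked at day 7 with lower folds than Tgm3, whereas Pdzrn4 rose 5.70-fold, from 4.35 ± 0.799 to 24.8 ± 0.727 CPM, and was at 7.76 ± 1.18 CPM at day 14. The points compared share libraries and depth.

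Tgm5, the enzyme linked to acral peeling skin, had 26.0, 25.5 and 24.0 CPM in day 1 libraries 4, 5 and 6. It had 13.8, 11.7 and 15.6 CPM in day 7 libraries 1, 2 and 3, and 11.0, 11.5 and 9.49 CPM in day 14 libraries 4, 5 and 6. No library of one day reached into the range of another. The means were 25.1 ± 1.04, 13.7 ± 1.96 and 10.7 ± 1.05 CPM. Most of the fall came before day 7 (log2 change -0.88 ± 0.10 SE, adjusted p = 2.07e-05), and the step to day 14 was smaller (-0.36 ± 0.11 SE, edgeR adjusted p = 0.00932). From day 1 to day 14 the level dropped 2.36-fold (log2 change -1.24 ± 0.10 SE, adjusted p = 3.30e-07). Falls in both steps were found in 10.2% of all genes. The closest profiles were those of Itpk1, an inositol phosphate kinase gene, Spats2 and the septin gene Sept11, with root mean square differences of 0.085, 0.12 and 0.13. Itpk1 had 24.6 ± 0.420, 12.5 ± 1.07 and 9.94 ± 0.738 CPM.

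Tgm1, the membrane-anchored enzyme, had 6.80, 9.30 and 10.1 CPM in day 1 libraries 4, 5 and 6. It had 7.71, 4.92 and 5.80 CPM in day 7 libraries 1, 2 and 3, and 19.7, 15.3 and 14.7 CPM in day 14 libraries 4, 5 and 6. Every day 14 library stood above all earlier ones, while days 1 and 7 overlapped through day 1 library 4 and day 7 library 1. The means were 8.72 ± 1.70, 6.14 ± 1.42 and 16.5 ± 2.71 CPM. Between days 7 and 14 Tgm1 rose 2.69-fold (log2 change 1.43 ± 0.20 SE, edgeR adjusted p = 0.000154), and day 14 was 1.90-fold above day 1 (0.93 ± 0.20 SE, adjusted p = 0.00185). The difference between days 1 and 7 did not pass (log2 change -0.50 ± 0.20 SE, 95% confidence interval -0.95 to -0.05, adjusted p = 0.0636). A fall to day 7 followed by a rise, with both steps called, was found in 6.23% of all genes. Tgm1 was not among them by edgeR but was in DESeq2 (adjusted p = 0.0163 for the step to day 7). It passed without day 1 library 4 (-0.65, edgeR adjusted p = 0.0191) or day 7 library 1 (-0.70, 0.0129), the libraries that made the days overlap, and the range over all alternatives tried was 0.0129 to 0.186. Day 1 library 4 is also the one that stood apart in suprabasal and fibroblast markers, whose part in the Tgm1 level was not tested.

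The profiles closest to Tgm1 were those of Prx, Mex3d and Nab2, with root mean square differences of 0.16, 0.17 and 0.18. Prx, the periaxin gene, had 18.1 ± 0.796, 12.8 ± 2.35 and 34.4 ± 1.13 CPM at days 1, 7 and 14. Nab2, a corepressor of Egr transcription factors, had 62.3 ± 8.41, 48.6 ± 3.75 and 112 ± 6.37 CPM. Like Tgm1, both had their highest mean at day 14 and their lowest at day 7.

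Tgm2, the tissue transglutaminase, was near the lower limit of these libraries, with 8 to 51 counts. It had 0.311, 0.740 and 0.472 CPM in day 1 libraries 4, 5 and 6. It had 0.632, 0.652 and 0.155 CPM in day 7 libraries 1, 2 and 3, and 1.02, 0.603 and 0.179 CPM in day 14 libraries 4, 5 and 6. Libraries of a day differed by more than the means of the days, and all days overlapped. The log2 changes were -0.06 from day 1 to day 7 (95% confidence interval -1.45 to 1.32, edgeR adjusted p = 0.946), 0.31 from day 7 to day 14 (-1.08 to 1.69, 0.684) and 0.24 from day 1 to day 14 (-1.14 to 1.62, 0.739). Each interval runs beyond 1 log2 unit on both sides of 0, so a change of that size could not be detected with the spread between these libraries. Rprd1b, whose exons overlap Tgm2 on the opposite strand in GENCODE but not in RefSeq, had 38.5 to 55.7 CPM. Its part in the Tgm2 counts was not tested. The closest profile, that of Cbarp, lay 0.53 away, further than the closest profile of any other member.

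**Figure D2:**
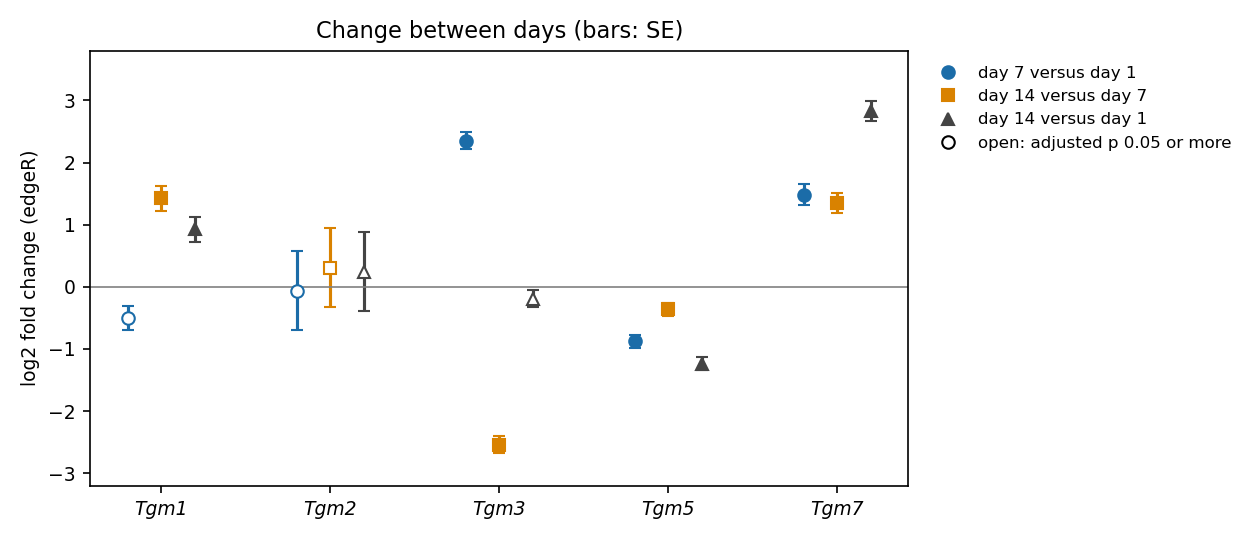
Log2 fold change of each transglutaminase between days (y axis, edgeR; bars, SE), with filled symbols for an adjusted p under 0.05 and open symbols otherwise. Tgm3 has the steps farthest from 0 (2.35 and -2.54) and returns, Tgm5 lies below 0 throughout, Tgm7 lies above 0 throughout, and the wide bars of Tgm2 cross 0.

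Levels of different genes were compared as CPM per kb of the longest protein-coding transcript in GENCODE M21, which has 2852 bases for Tgm1, 3596 for Tgm2, 4135 for Tgm3 and 2613 for Tgm5. At day 1 the order was Tgm3 at 31.8 ± 6.35 CPM per kb, Tgm5 at 9.62 ± 0.398, Tgm1 at 3.06 ± 0.597 and Tgm2 at 0.141 ± 0.0603 (SD, n = 3). At day 7 the order was the same, but Tgm3 at 162 ± 4.42 CPM per kb stood 30.9-fold above Tgm5 at 5.24 ± 0.750, followed by Tgm1 at 2.15 ± 0.499 and Tgm2 at 0.133 ± 0.0783. By day 14 Tgm1 at 5.80 ± 0.949 CPM per kb had passed Tgm5 at 4.08 ± 0.401, below Tgm3 at 27.9 ± 2.73 and above Tgm2 at 0.167 ± 0.117. Among these 4 genes, neighbours in the order did not overlap between libraries of a day. Taking the union of all exons as the length, an alternative chosen after seeing the data, gave the 4 genes the same order on each day.

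Tgm3 took most of the summed CPM per kb of the 4 genes at each age, with 70.9 ± 3.28% at day 1, 95.6 ± 0.675% at day 7 and 73.4 ± 4.18% at day 14. The sum itself was 44.6 ± 6.74, 169.6 ± 3.42 and 37.9 ± 1.67 CPM per kb. Days 1 and 14 had a like Tgm3 share, but the remainder was made up differently. Tgm5 held 21.9 ± 3.23% at day 1 and 10.8 ± 1.5% at day 14, while Tgm1 held 6.89 ± 1.3% and 15.3 ± 2.84%. Tgm2 stayed under 1% in all libraries, at most 0.759%.

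**Figure D3:**
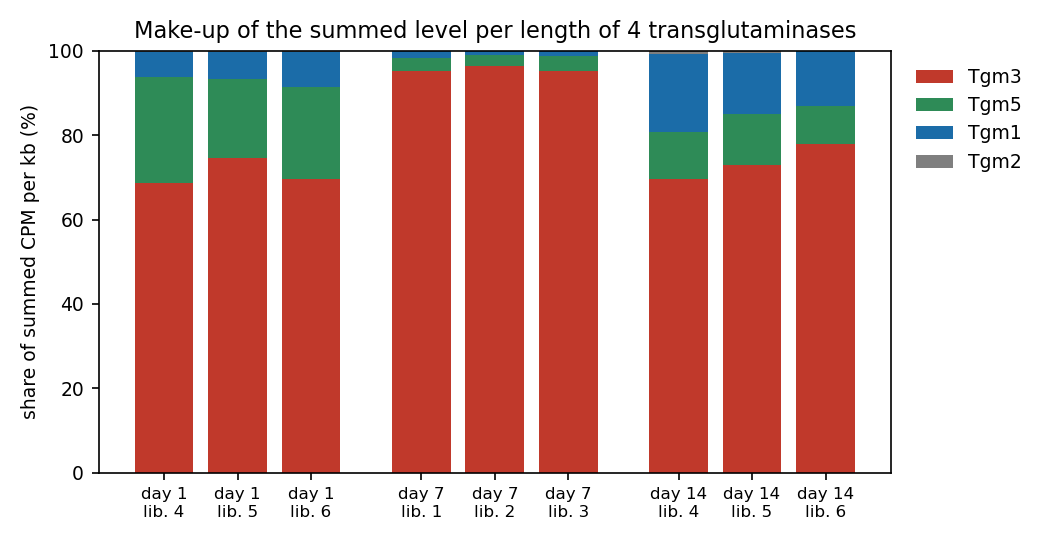
Share of each member in the summed CPM per kb of the 4 transglutaminases (y axis, percent, from 0), with a stacked bar per library named by day and header number. Tgm3 takes 95.1 to 96.3% in the day 7 libraries, and the Tgm5 share of day 14 is lower and the Tgm1 share higher than at day 1.

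Ratios between members within a library do not depend on library scaling. The log2 ratio of Tgm1 to Tgm5 counts was -1.55 ± 0.35 at day 1, -1.17 ± 0.30 at day 7 and 0.63 ± 0.22 at day 14, so that all day 14 libraries lay above 0 and all earlier ones below. The log2 ratio of Tgm3 to Tgm5 was 2.37 ± 0.28, 5.62 ± 0.24 and 3.44 ± 0.28, and that of Tgm1 to Tgm3 was -3.92 ± 0.29, -6.79 ± 0.36 and -2.81 ± 0.34. In an exact permutation test over the 1680 assignments of 9 libraries to 3 days, adjusted over the 6 pairs of members, these 3 ratios differed between days (adjusted p = 0.0143, 0.0107 and 0.0107). The unadjusted p of the latter pair, 0.00357, is the smallest the design can give. Ratios with Tgm2 did not pass: adjusted exact p = 0.0536 against Tgm3, and 0.407 against both Tgm1 and Tgm5.

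Of the other members of the family, Tgm7, the neighbour of Tgm5, rose in both steps while Tgm5 fell. It had 3.33, 3.48 and 4.33 CPM in day 1 libraries 4, 5 and 6, then 8.16, 10.7 and 12.3 CPM in day 7 libraries 1, 2 and 3, and 25.9, 23.4 and 29.9 CPM in day 14 libraries 4, 5 and 6. The days did not overlap, and the level at day 14 was 7.12-fold that at day 1 (log2 change 2.83 ± 0.17 SE, edgeR adjusted p = 7.22e-08). Per length, Tgm7 was below Tgm1 at day 1 (1.73 against 3.06 CPM per kb), overlapped Tgm5 at day 7 (4.83 against 5.24 CPM per kb) and was next to Tgm3 at day 14 (12.3 against 27.9 CPM per kb). Rises in both steps were found in 12.3% of all genes.

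Tgm6, the neighbour of Tgm3, had 0 counts in all day 1 libraries, 12, 27 and 0 in day 7 libraries 1, 2 and 3, and 42, 2 and 8 in day 14 libraries 4, 5 and 6. Its difference between days 14 and 1 passed (edgeR adjusted p = 0.0296) but was lost without day 1 library 4 or 5 or day 14 library 4 (up to 0.0741). The highest Tgm6 libraries of days 7 and 14 also had the highest sums of inner root sheath markers, 55.5 and 44.1 CPM against 24.5 to 35.9 CPM in the others, whose part in the result was not tested. Tgm4 and Epb42 had at most 24 and 17 counts and did not pass the filter. F13a1, the factor XIII subunit, had 0 counts in each library, which allows up to 3 counts in each.

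The proteins that transglutaminases join were read beside them. For these and the lists that follow, the share over all genes tested was 25.5% higher and 24.0% lower for the step to day 7, and 32.5% higher and 35.1% lower for the step to day 14. For day 14 against day 1 it was 35.5% higher and 38.4% lower. Of 5 scaffold genes, 4 were higher and 1 lower at day 7 than at day 1, and 5 of 5 were higher at day 14 than at day 7, when Tgm1 rose too (4 of 5 on library totals without TMM factors, where Dsp, the desmoplakin gene, had an adjusted p of 0.840). The scaffold median was 0.40 for the step to day 7 and 0.90 for the step to day 14, where the median of all genes tested was -0.00053 and -0.035. Evpl, the envoplakin gene, went from 260 ± 21.2 to 342 ± 9.82 and 640 ± 23.3 CPM at days 1, 7 and 14. Ppl, which encodes its partner periplakin, went from 517 ± 33.0 to 466 ± 11.2 and 975 ± 40.1 CPM. Its mean was lowest at day 7, as was that of Tgm1, whose step to day 7 did not pass. The Ppl dip to day 7 (log2 change -0.15, edgeR adjusted p = 0.0303) was lost without day 1 library 5 or 6 or day 7 library 2 or 3 (up to 0.138). Ivl, the involucrin gene, rose from 0.980 ± 0.266 to 7.85 ± 1.33 CPM (adjusted p = 3.01e-06) and to 12.6 ± 3.14 CPM, of which the latter step (edgeR adjusted p = 0.0125) no longer passed with day 7 library 2 or with day 14 library 4 left out (up to 0.0539).

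Loricrin and the small proline-rich proteins, substrates of Tgm3, were split. Of 16 listed genes 9 were tested: 5 rose and 0 fell to day 7, and 4 rose and 5 fell to day 14. Sprr2a1, Sprr2a2 and Sprr2a3 followed the up and down course of Tgm3, with 41.4 ± 5.44, 91.5 ± 9.68 and 11.6 ± 2.41 CPM for Sprr2a1. These 3 genes are near-identical copies whose reads may have been divided among them, so single values are uncertain. Sprr1a rose in both steps, from 25.2 ± 7.19 to 56.9 ± 12.4 and 157 ± 18.9 CPM. Lor, the loricrin gene, was at 5.48 ± 0.292 and 5.69 ± 0.947 CPM at days 1 and 7 and rose to 14.5 ± 3.81 CPM at day 14 (log2 change 1.35, edgeR adjusted p = 9.21e-05), when Tgm3 fell. The median of the 9 was 1.14 for the step to day 7 and -2.30 for the step to day 14.

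Late cornified envelope genes were scarce, with 4 of 21 tested and a summed level of at most 4.04 CPM. Lce6a rose and fell as Tgm3 did, from 0.463 ± 0.193 to 1.63 ± 0.384 and 0.285 ± 0.108 CPM. Of 3 tested fused S100 genes, 0 rose and 1 fell to day 7, all 3 rose from day 7 to day 14, and against day 1 day 14 was higher in 2 and lower in 1. Flg2 rose from 0.257 ± 0.125 to 4.55 ± 1.24 CPM between days 7 and 14. Rptn, the repetin gene, fell by 4.24 on the log2 scale to day 7 and ended lower than at day 1 (log2 change -2.11, edgeR adjusted p = 0.00587), and its rise to day 14 (adjusted p = 0.0296) no longer passed with library 1 of day 7 or any single day 14 library left out, or in limma-voom (up to 0.0820). Tchh, the trichohyalin gene and hair substrate of Tgm3, was at 25.1 ± 1.79, 22.6 ± 2.32 and 19.9 ± 1.17 CPM. Its steps were -0.15 and -0.18 on the log2 scale and did not pass (edgeR adjusted p = 0.160 and 0.0744), beside steps of 2.35 and -2.54 for Tgm3.

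**Figure D4:**
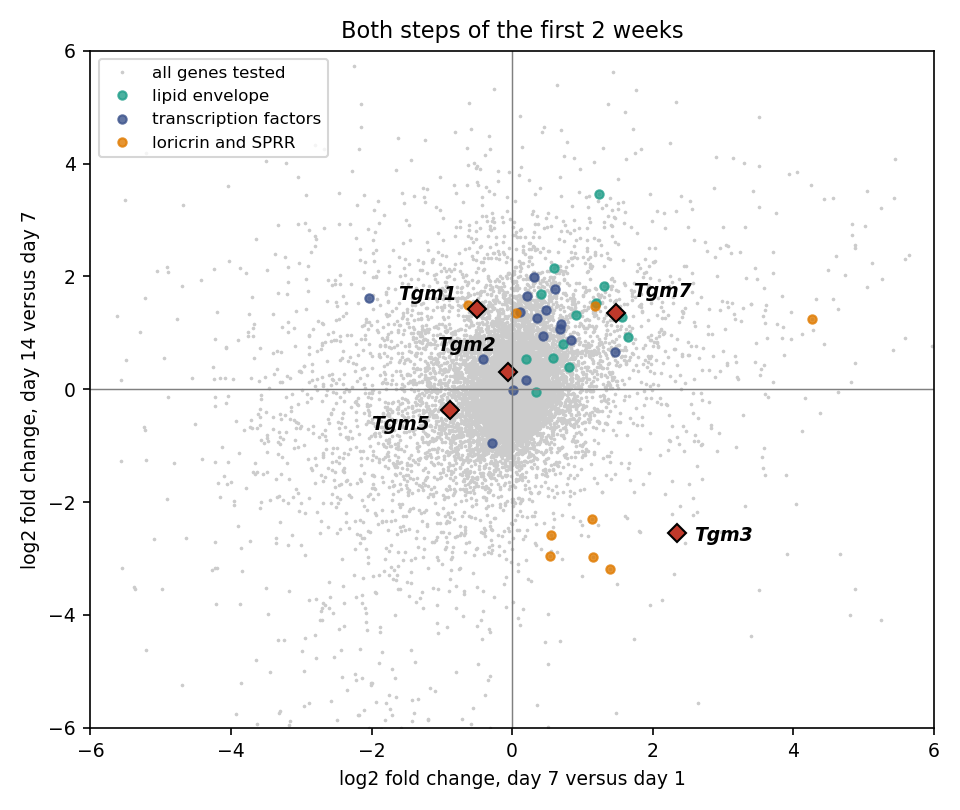
Log2 fold change from day 1 to day 7 (x axis) against that from day 7 to day 14 (y axis) for all genes tested (grey), 3 gene lists (coloured points) and the transglutaminases (diamonds), where 129 genes lie outside the plotted range. Tgm3 lies at lower right with several small proline-rich protein genes, Tgm7 at upper right with most lipid envelope genes and transcription factors, and Tgm5 at lower left, and the axes share day 7, which by itself spreads points towards upper left and lower right.

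Among proteases and inhibitors listed for the processing of transglutaminases, 9 of 9 were tested: 6 rose and 1 fell to day 7, and 4 rose and 2 fell to day 14 (3 and 5 on library totals without TMM factors). Ctsl, which encodes cathepsin L, a protease that processes the Tgm3 proenzyme, fell while Tgm3 rose and rose while Tgm3 fell, with 108 ± 7.54, 76.1 ± 4.54 and 158 ± 6.88 CPM at days 1, 7 and 14. The steps were -0.51 ± 0.06 SE and 1.06 ± 0.06 SE on the log2 scale (edgeR adjusted p = 2.67e-05 and 2.42e-08). Cst6, the gene of cystatin M/E, an inhibitor of cathepsin L and legumain, rose from 6.17 ± 1.71 to 50.2 ± 8.75 and 106 ± 17.9 CPM. Ctsd, the cathepsin D gene, rose to day 7 from 258 ± 9.18 to 405 ± 11.7 CPM and was at 391 ± 14.1 CPM at day 14.

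Genes of the lipid envelope, whose ceramides Tgm1 can attach to the scaffold, were mostly higher at later days. Of 14 genes 11 rose and 1 fell to day 7, 13 rose and 0 fell to day 14, and 14 of 14 were higher at day 14 than at day 1 (13 on library totals without TMM factors), with medians of 0.76, 1.3 and 2.17. Elovl4, which makes very long fatty acids, went from 38.0 ± 5.71 to 71.7 ± 2.07 and 179 ± 20.3 CPM. Abca12, the lipid transporter of lamellar granules, went from 17.8 ± 3.90 to 52.2 ± 6.38 and 126 ± 8.20 CPM. Tgm1 rose with them to day 14, and its step to day 7 was -0.50.

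Transcription factors of keratinocyte differentiation rose in 10 of 16 genes to day 7 and in 13 of 16 to day 14, with 2 and 1 falling and medians of 0.33 and 1.11. Grhl3, a Grainyhead factor known to act on Tgm1, went from 40.6 ± 3.95 to 62.1 ± 6.80 and 213 ± 12.7 CPM (log2 steps 0.61 and 1.78, edgeR adjusted p = 0.000264 and 5.46e-08). Klf4, needed for the skin barrier, went from 483 ± 33.6 to 674 ± 75.6 CPM and to between 1757 and 1852 CPM in the day 14 libraries. The course of Tgm3, a rise to day 7 and a fall to day 14 with both steps past the threshold, was found in 0 of these 16 factors by edgeR, and in 0 at an unadjusted p under 0.05. By edgeR that course was found in 7.24% of all genes tested, so 0 of 16 does not set these factors apart from other genes.

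Retinoids hold back epidermal transglutaminases in culture and raise Tgm2, and their receptors and binding proteins were read for that reason. Of 15 tested genes 7 rose and 1 fell to day 7, and 11 rose and 3 fell to day 14, with medians of 0.33 and 0.81. The call of Aldh1a3 for the step to day 7 was lost in 6 of 16 alternatives. Rara, the alpha receptor, had its lowest mean at day 7, with 89.9 ± 5.84, 50.3 ± 3.41 and 98.7 ± 0.356 CPM. The mean of Tgm1 was lowest at day 7 too, but its step to day 7 did not pass. Crabp2, which carries retinoic acid to its receptors, rose from 2.72 ± 0.913 to 6.10 ± 0.636 and 15.8 ± 1.97 CPM. Rxra, the common partner receptor, rose and fell by 0.17 (log2) in the steps that moved Tgm3 by 2.35 and -2.54, and its rise was lost on library totals without TMM factors (adjusted p = 0.234).

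Among 11 genes for surface and matrix partners of Tgm2, 4 rose and 5 fell to day 7, and 5 rose and 5 fell to day 14, while Tgm2 itself did not pass. 1 of the rises to day 14, that of Lrp1 (log2 change 0.12, edgeR adjusted p = 0.0471), was lost in 11 of 16 alternatives, and 1 of the falls, that of Itgb1 (-0.20, adjusted p = 0.0274), in 4 of 16. Against day 1, 3 of the 11 were higher and 7 lower at day 14. The median log2 changes were -0.32 to day 7, 0.12 from day 7 to day 14 and -0.41 from day 1 to day 14. Thbs1, the gene of the matrix protein thrombospondin-1, rose from 398 ± 71.9 to 655 ± 45.7 and 2135 ± 424 CPM. Sdc4, the gene of the matrix receptor syndecan-4, rose from 264 ± 25.7 to 563 ± 23.3 and 1225 ± 124 CPM. Fibroblast markers, from cells known to make Tgm2, were highest at day 1, where Tgm2 averaged 0.508 CPM against 0.480 and 0.600 CPM at days 7 and 14, and their part in the Tgm2 level was not tested.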

How the data were processed

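RNA-seq was read for 9 libraries. The submitters' processing notes name HISAT2 2.1.0, StringTie 1.3.4d, Trimmomatic and bcl2fastq 2.20.0, and mm10 as the build. How reads were counted, on which strand and over which annotation is not given in the sources used here. The deposited read counts are whole numbers per gene. They were taken as not normalized because the column headers call them read counts, and the headers say no more on this. Headers name the day of each column, and those reading D0 were taken as day 1 because the other days have headers of their own. Within a day, columns cannot be matched to sample titles, and 18 columns of deposited TPM and FPKM were not used. Levels per length are CPM over transcript length from GENCODE M21.

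Counts were tested with edgeR 4.0.16 in R 4.3.3 (TMM factors, filterByExpr, robust quasi-likelihood F test, 1 model over 9 libraries with day as the factor). P-values were adjusted by the Benjamini-Hochberg method over 14507 genes, and the threshold was 0.05. SEs are the absolute log2 fold change over the root of F. Ratios of members were tested by exact permutation, two-sided. The steps were tested on simulated counts. Alternatives were other scalings, no filter, DESeq2 1.42.0, limma-voom (limma 3.58.1), pairs of days fitted alone, header numbers as a block, and each library left out. Gene identifiers matched RefSeq for 24462 of 24532 genes.

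The members, the 19 gene lists (192 genes) and the tests were chosen with earlier results of these data known. Genes named are the family, up to 4 genes of highest mean CPM per list, Ctsl, Cst6, Grhl3, Ivl, Lor, Tchh and Crabp2, and the 3 closest profiles per member. Xist, Ddx3y, Rprd1b, Rptn, Lrp1, Itgb1, Krt35, Krt36, Itgb4, Dsc1 and Aldh1a3 were added after their values were seen. Lists that are summarised only by counts or sums are those of cell type markers. To day 7, hair shaft markers had 4 higher and 0 lower of 6 tested, basal markers 4 and 1 of 6, and suprabasal markers 5 and 0 of 8, against 25.5% higher and 24.0% lower over all genes. Of these calls, those of Krt36 (9 of 15 alternatives), Krt35 (4 of 16), Itgb4 (5 of 16) and Dsc1 (9 of 16) were lost under some alternatives. From day 7 to day 14 hair shaft markers had 1 higher and 0 lower, basal markers 1 and 3, and suprabasal markers 4 and 2. Over all genes that step had 32.5% higher and 35.1% lower. Basal markers summed to 51698 to 53335 CPM at day 7 and 37672 to 42870 CPM at day 14. How the calls of this step held under the alternatives is not given here.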

Additional observations from a re-analysis of the deposited data

How the results depend on the processing

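Over all alternatives tried, each call for Tgm3 and Tgm5 and those of Tgm1 against day 14 kept their direction and their side of the threshold, except the Tgm3 difference between days 14 and 1 on library totals without TMM factors (-0.46, adjusted p = 0.0131). The Tgm1 difference between days 7 and 1 passed on library totals (-0.60, 0.0248), in DESeq2 (-0.52, 0.0163), and with any of 3 libraries left out, namely day 1 library 4 (-0.65), library 1 of day 7 (-0.70) and library 4 of day 14 (-0.50, edgeR adjusted p = 0.0494), with leave-one-out values from -0.70 to -0.36. Tgm2 did not pass under any of them, and its sign turned on library totals for day 14 against day 1 (-0.026) and as libraries were left out: the ranges were -0.34 to 0.34 for day 7 against day 1, -0.31 to 0.73 for day 14 against day 7 and -0.37 to 0.67 for day 14 against day 1. The ratio of Tgm2 to Tgm3 passed without day 14 library 6, with adjusted exact p from 0.00714 to 0.137 over the libraries left out. The cause was not tested. Library totals move the median log2 change of all genes to -0.10, -0.21 and -0.32 for days 7 against 1, 14 against 7 and 14 against 1, and the share of calls that are higher to 35.7%, 34.9% and 31.9% from 51.5%, 48.1% and 48.1%. Days 1 and 14 share header numbers, but same-numbered libraries deviated together with correlations of only 0.0141, 0.0102 and 0.104, and only number 6 correlated best with its own. With the replicate block the changes between days 14 and 1 were 0.93 for Tgm1 (edgeR adjusted p = 0.00915), 0.08 for Tgm2 (0.917), -0.18 for Tgm3 (0.252) and -1.24 for Tgm5 (2.61e-06), and 10170 genes were called against 10716, so no member's call changed. Tgm2, at 8 to 51 counts, and Tgm6, at 0 to 42, are limited by few counts and a wide spread between libraries of a day. The alternatives that use deposited TPM for the ratios and deposited FPKM for the order by level were not run, since those columns were not used.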
